A study of Homo sapiens with 192 samples.

Results

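The genes described here are 10 members that mark the adherent and mesenchymal state of a cell, chosen by name: the transcription factors ZEB1, ZEB2, TWIST1 and SNAI2, the Hippo pathway effectors TEAD1 and YAP1, the structural genes VIM and FN1, and the cadherins CDH2 and CDH1. They are 10 of 20033 protein-coding genes on the chromosomes covered. HAP1 cells were profiled by plate-based snATAC-seq, in which single nuclei are sorted into wells after the Tn5 transposase has cut and tagged open chromatin in bulk. HAP1 is a near-haploid human line that grows attached to the dish and was derived from a line of chronic myeloid leukaemia. The cells came from 2 plates of 96, and both plates hold a mix of nuclei labeled with CASB, the concanavalin A-based sample barcode, and unlabeled nuclei of the same line. Which cell carried the label is not analysed here, so each plate counted as 1 sample and no test was made. A feature is a stretch of 1001 bp around the summit of an ATAC peak called on all cells together, and a gene or feature was seen in a cell when at least 1 read pair of that cell fell in it. Of 80971 features, 97 lay in the 10 genes or within 50000 bp of them. Of these, 25 lay within 1000 bp of an annotated start of the member itself (a start feature of that gene).

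When epithelial cells take on a mesenchymal form, they lose E-cadherin, the protein of CDH1 that holds neighbouring epithelial cells together, and gain N-cadherin (CDH2), the intermediate filament vimentin (VIM) and the matrix protein fibronectin (FN1). ZEB1, ZEB2, SNAI2 and TWIST1 are transcription factors that drive this change. ZEB and SNAI proteins bind E-boxes of the form CACCTG and repress CDH1. YAP1 is a coactivator that enters the nucleus in spread, attached cells and acts through DNA-bound TEAD factors such as TEAD1, while the kinases of the Hippo pathway hold it in the cytoplasm.

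The start features of 9 of the 10 members were seen, each gene in between 10 and 26 of the cells that had more than 300 features (83 in plate 1 and 79 in plate 2, called passing cells), and CDH1 had no called feature within 1000 bp of any of its 10 annotated starts. Over all annotated starts, VIM was seen in the most cells, 26 (16% of passing cells, exact 95% interval 10.8 to 22.6), and SNAI2 in the fewest of the 9, 10 cells (6.17%, 3.00 to 11.1). The file lists only called features, so reads that may lie at the CDH1 starts outside of a feature are not analysed here, and CDH1 is counted below as seen in no cell. Intervals are exact Clopper-Pearson intervals and cover counting error only: with no separate cultures named, variation between cultures is not in them. No molecular identifiers tell PCR copies of a fragment from separate molecules. The authors removed duplicated reads, and a gene was either seen or not seen in a cell, whatever its number of read pairs.

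Promoter sequences of some members are shown first. They come from the RefSeq promoter table on GRCh38.p14, which held 13 promoters of 6 members (ZEB1, ZEB2, YAP1, VIM, CDH2 and FN1). It did not match TWIST1, SNAI2, TEAD1 and CDH1. All 13 were identical to the hg38 genome at their coordinates. Each line gives the part of a promoter that holds no annotated UTR, 5′ to 3′ on the strand of the gene, for VIM (chr10:17227991-17228240, plus strand), FN1 (chr2:215436074-215436318, minus strand), CDH2 (chr18:28177131-28177380, minus strand), YAP1 (chr11:102110197-102110446, plus strand) and the first of 7 promoters of ZEB1 (chr10:31318167-31318466, plus strand). Capitals mark matches on either strand to CACCTG, to the TEAD letters GGAATG and to the AP-1 letters TGANTCA.
VIM: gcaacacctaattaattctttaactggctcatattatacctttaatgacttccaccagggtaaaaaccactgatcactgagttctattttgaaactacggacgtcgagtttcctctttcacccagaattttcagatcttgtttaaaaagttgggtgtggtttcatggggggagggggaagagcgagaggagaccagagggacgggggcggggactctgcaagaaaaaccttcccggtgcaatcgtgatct
FN1: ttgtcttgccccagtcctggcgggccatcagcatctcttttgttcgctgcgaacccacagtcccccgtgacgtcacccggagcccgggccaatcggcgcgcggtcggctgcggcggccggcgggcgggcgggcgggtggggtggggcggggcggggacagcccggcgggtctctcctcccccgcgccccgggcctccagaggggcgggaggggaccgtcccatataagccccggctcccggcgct
CDH2: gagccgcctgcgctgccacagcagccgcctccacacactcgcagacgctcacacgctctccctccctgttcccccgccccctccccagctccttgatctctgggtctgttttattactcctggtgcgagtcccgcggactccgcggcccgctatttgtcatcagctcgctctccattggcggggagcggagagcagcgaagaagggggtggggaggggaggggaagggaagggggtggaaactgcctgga
YAP1: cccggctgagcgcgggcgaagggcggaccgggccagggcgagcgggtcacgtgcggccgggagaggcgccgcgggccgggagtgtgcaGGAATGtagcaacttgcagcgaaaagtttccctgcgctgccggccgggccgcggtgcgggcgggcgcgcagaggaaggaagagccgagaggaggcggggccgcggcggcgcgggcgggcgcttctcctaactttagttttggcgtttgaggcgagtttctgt
ZEB1: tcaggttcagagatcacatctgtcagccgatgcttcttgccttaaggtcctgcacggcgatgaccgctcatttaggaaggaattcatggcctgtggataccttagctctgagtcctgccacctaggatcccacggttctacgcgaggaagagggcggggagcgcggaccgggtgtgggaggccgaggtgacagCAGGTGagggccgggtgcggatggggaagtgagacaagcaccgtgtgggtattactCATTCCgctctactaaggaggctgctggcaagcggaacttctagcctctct

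The printed VIM, FN1 and CDH2 promoters held no match to the 3 capitalised motifs, YAP1 held 1 TEAD match, and ZEB1 held 1 match to CACCTG and 1 to the TEAD letters. The printed ZEB1 promoter overlaps a feature seen in 3 cells, while the most often seen ZEB1 start feature was seen in 6. Over the 13 whole promoters of 300 bases, 2 (15.4%) held CACCTG, both of ZEB1, against 20.6% of all 35116 promoters of the table. The promoter of ZEB1 at chr10:31318966-31319265 held 3 such matches. TEAD letters were in 2 of 13 (15.4%, against 14% of all promoters) and AP-1 letters in 1 of 13, an internal CDH2 promoter (7.69%, against 7.71%). The wider E-box CANNTG, which includes every CACCTG, was in 7 of 13 (53.8%, against 68.7%). A match of letters is a description of the sequence and not a bound site. The FN1 promoter had a GC content of 76.7%, above that of 93.1% of all promoters, and the YAP1 promoter 70.7%, above 81.2% of them. VIM and ZEB2 were poorer in GC (48% and 49%).

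A second set of sequences comes from features away from the promoters, or past the start, that were seen in 10 or more cells: the centre of the most often seen VIM feature (chr10:17229888-17230003, the part without an annotated UTR), of a CDH2 feature just inside the gene (chr18:28175146-28175346), of a feature inside FN1 (chr2:215403600-215403800) and of a feature downstream of YAP1 (chr11:102268613-102268813). They are on the plus strand of hg38, with the same capitals, and bear on the comparison of start and distal features below.
VIM centre: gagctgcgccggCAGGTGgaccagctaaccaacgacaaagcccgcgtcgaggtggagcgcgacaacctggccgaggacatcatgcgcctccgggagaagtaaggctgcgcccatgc
CDH2 centre: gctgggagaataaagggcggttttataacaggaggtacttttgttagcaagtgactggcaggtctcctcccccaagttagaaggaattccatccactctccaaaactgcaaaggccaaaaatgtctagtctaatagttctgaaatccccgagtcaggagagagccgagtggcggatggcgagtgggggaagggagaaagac
FN1 centre: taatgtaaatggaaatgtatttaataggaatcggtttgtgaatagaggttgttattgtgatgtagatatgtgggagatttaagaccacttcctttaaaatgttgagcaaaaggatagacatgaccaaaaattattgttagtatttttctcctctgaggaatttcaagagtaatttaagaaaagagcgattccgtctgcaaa
YAP1 downstream centre: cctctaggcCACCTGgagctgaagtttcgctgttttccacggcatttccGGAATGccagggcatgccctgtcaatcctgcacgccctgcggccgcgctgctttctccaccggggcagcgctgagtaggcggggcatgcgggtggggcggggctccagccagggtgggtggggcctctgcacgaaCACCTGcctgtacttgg

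The stretch downstream of YAP1 held 2 matches to CACCTG and 1 to the TEAD letters, the VIM stretch held 1 match to CACCTG, and those of CDH2 and FN1 held none of the 3 motifs. The centres of the YAP1 features at chr11:102061071-102062071 and chr11:102279422-102280422, each seen in 10 cells and not printed, held none either. Over 201 bases around the centre, the VIM feature had a GC content of 69.7% and overlaps coding sequence of VIM, the YAP1 one had 66.7%, the CDH2 one 49.8% and the FN1 one 31.8%.

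VIM, which encodes the main intermediate filament of mesenchymal cells, was seen in 15 of 83 cells of plate 1 (18.1%) and in 11 of 79 cells of plate 2 (13.9%). Its 3 start features did not contribute alike. The feature centred 1.75 kb downstream of the main start (chr10:17229488-17230488), which also covers starts of the antisense gene VIM-AS1, was seen in 18 cells (11.1%, 6.72 to 17), 11 of plate 1 and 7 of plate 2. The feature at the promoter itself (chr10:17228087-17229087) was seen in 11 cells, and one 6.36 kb into the gene, also over the start of another gene, in 2. With the 1 start that MANE Select lists per gene as representative, VIM was seen in 6.79% of cells and no longer led: FN1 (10.5%), TWIST1 and CDH2 (9.26% each) and YAP1 (8.64%) stood above it. ATAC reads carry no strand of transcription, so VIM and VIM-AS1 cannot be told apart there. The same limit holds for the only SNAI2 start feature and for the TWIST1 and YAP1 start features seen in 8 cells each. It also holds for the ZEB2 feature nearest the main start and for ZEB1 start features that cover ZEB1-AS1. Each of these covers a start of another gene as well.

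FN1, which encodes fibronectin, was seen at a single start feature (chr2:215435321-215436321) that also covers the divergent gene FN1-DT. It was found in 17 cells (10.5%, 6.23 to 16.3), 9 of 83 in plate 1 and 8 of 79 in plate 2, and held 22 read pairs, up to 5 in 1 cell. The plates were close, and with paired wells merged, as described further on, FN1 was seen in 16 wells. Only VIM and FN1 had a start feature seen in 16 or more cells.

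The cadherins had different features at their starts. CDH2 was seen in 15 cells (9.26%, 5.28 to 14.8), 8 of plate 1 and 7 of plate 2, from 2 overlapping start features seen in 13 cells (chr18:28176103-28177103) and 9 cells (chr18:28176737-28177737). A further feature inside the gene and outside its exons, centred 1.88 kb from the start (chr18:28174746-28175746), was also seen in 13 cells, 7 of plate 1 and 6 of plate 2. Counting within 2000 bp of a start took in that feature and raised CDH2 to 15.4%. CDH1 had 4 features in its whole window, and the 2 seen in 5 or more cells lay over starts of other genes, TANGO6 (5 cells) and a Y_RNA (6 cells). The other 2, one upstream at −4.71 kb from the main start and one inside the gene, were each seen in 2 cells, all of plate 2.

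Among the transcription factors, TWIST1 was seen in 15 cells (9.26%, 5.28 to 14.8; 7 of plate 1 and 8 of plate 2), ZEB2 in 14 (8.64%, 4.81 to 14.1; 6 and 8), ZEB1 in 13 (8.02%, 4.34 to 13.3; 8 and 5) and SNAI2 in 10 (6 and 4). The 2 TWIST1 start features were seen in 7 and 8 cells, with no cell in common. SNAI2 had 1 start feature (chr8:48921501-48922501), which also covers a start of another gene, and its 10 cells each gave 1 read pair.

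The ZEB genes have many annotated starts, 21 for ZEB1 and 46 for ZEB2, so that more sequence is searched for them than for SNAI2 and TWIST1 with 3 each. The 13 cells of ZEB1 came from 6 start features, none seen in more than 6 cells. The first 5 of these, from chr10:31318259 to chr10:31322479, lie around the promoter, and the last lies 35.7 kb into the gene. Overlapping features share read pairs, because a pair could count in more than 1 feature. For ZEB2, the start features seen most (8 and 7 cells) overlap each other 88.7 and 89.1 kb inside the gene, whereas the feature nearest the main start (chr2:144520728-144521728) was seen in 3 cells, all of plate 2. With the MANE Select start alone, ZEB1 was seen in 3.70% and ZEB2 in 1.85% of cells, while TWIST1 and SNAI2 kept 9.26% and 6.17%.

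YAP1 and its DNA-binding partner TEAD1 were seen through different kinds of starts. YAP1 was seen in 15 cells (9.26%, 7 of plate 1 and 8 of plate 2) through 4 features around its promoter, seen in 6, 8, 7 and 5 cells. The features seen in 6 and 8 cells overlap each other, as do those seen in 7 and 5. TEAD1 was seen in 14 cells (8.64%; 6 and 8), but 11 of these were seen at an internal start 154030 bp from the main one (chr11:12827951-12828951), while the feature at the main start (chr11:12673793-12674793) was seen in 4 cells. The internal start belongs to transcripts that are not annotated as protein-coding, and with starts of protein-coding transcripts only TEAD1 was seen in 2.47% of cells.

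**Figure D1:**
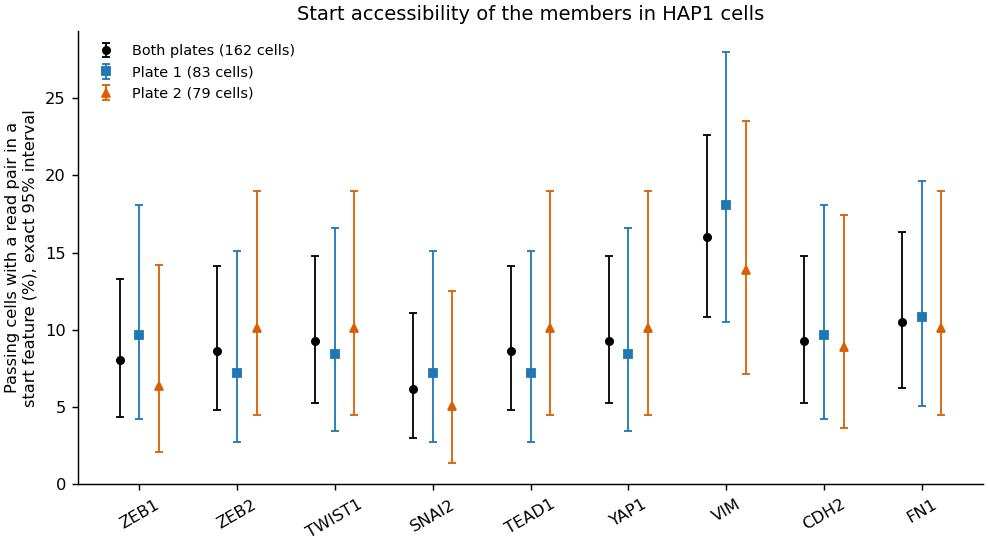
Share of passing cells (y axis, %) with a read pair in a start feature of each member (x axis) in both plates together and in each plate, with exact 95% intervals. VIM has the highest share, 16%, when all its starts are counted, and the intervals of the plates overlap for every gene shown. CDH1, with no start feature, is left out.

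The intervals of the plates overlapped for each of the 9 genes. They are wide, for SNAI2 2.70% to 15.1% in plate 1 and 1.40% to 12.5% in plate 2. Overlap of such intervals is not a test of a difference, and none was made. VIM, FN1, CDH2, ZEB1 and SNAI2 had higher shares in plate 1, and ZEB2, TWIST1, TEAD1 and YAP1 in plate 2. In percentage points, plate 2 minus plate 1 ranged from −4.15 for VIM to 2.90 for ZEB2 and TEAD1, and was −0.717 for FN1. Several of these directions turned with the processing: with paired wells merged FN1 stood at 1.21, and with cells thinned to 600 read pairs ZEB2 and TWIST1 stood at −1.37 and CDH2 at 0.

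Levels between genes were compared on a single feature per gene, the start feature seen in the most cells. Each value thus covers the same length. The feature was, however, picked from 6 start features for ZEB1, 4 for ZEB2 and YAP1, and 1 for FN1 and SNAI2. On this scale the order was VIM (18 cells), FN1 (17), CDH2 (13), TEAD1 (11), SNAI2 (10), then TWIST1, YAP1 and ZEB2 with 8 each, and ZEB1 (6). CDH1, which has no start feature, is left out of this order. No neighbours in this order differed beyond their intervals, and the intervals of the first, VIM (6.72% to 17%), and the last, ZEB1 (1.37% to 7.89%), overlapped as well.

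Wells of 1 plate that share a position in the groups of cells 37 to 48, 73 to 84 and 85 to 96 hold many of the same peaks, so each such group of wells was also merged and counted once. This touched 71 passing cells and left 60 wells in plate 1 and 55 in plate 2. VIM was then seen in 23 wells, FN1 in 16, TWIST1, TEAD1, YAP1 and CDH2 in 14 each, ZEB2 in 13, ZEB1 in 11 and SNAI2 in 10. All 9 genes were still seen in 10 or more, against 23.1% of protein-coding genes. Leaving out cells 73 to 96 altogether left 7 members in 10 or more cells, without ZEB1 and SNAI2, against 15.7% of genes.

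Set beside all protein-coding genes, 9 of 10 members had a start feature (background 55.5%), 9 were seen in 5 or more cells (43.6%) and 9 in 10 or more (25.5%). The median over the 10 was 14.5 cells and over all genes 3.00 cells. With the best single feature in place of all start features, 5 members (VIM, FN1, CDH2, TEAD1 and SNAI2) reached 10 cells, against a background of 21.3%. Genes with more annotated starts were seen in more cells: the share seen in 10 or more was 18.7% among genes with 2 to 4 starts, as TWIST1 and SNAI2 have, 29.2% with 5 to 9 (TEAD1, YAP1 and VIM), 35.5% with 10 to 19 (CDH2, CDH1 and FN1) and 44.7% with 20 or more (ZEB1 and ZEB2). These counts describe 10 genes chosen by name and carry no test.

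**Figure D2:**
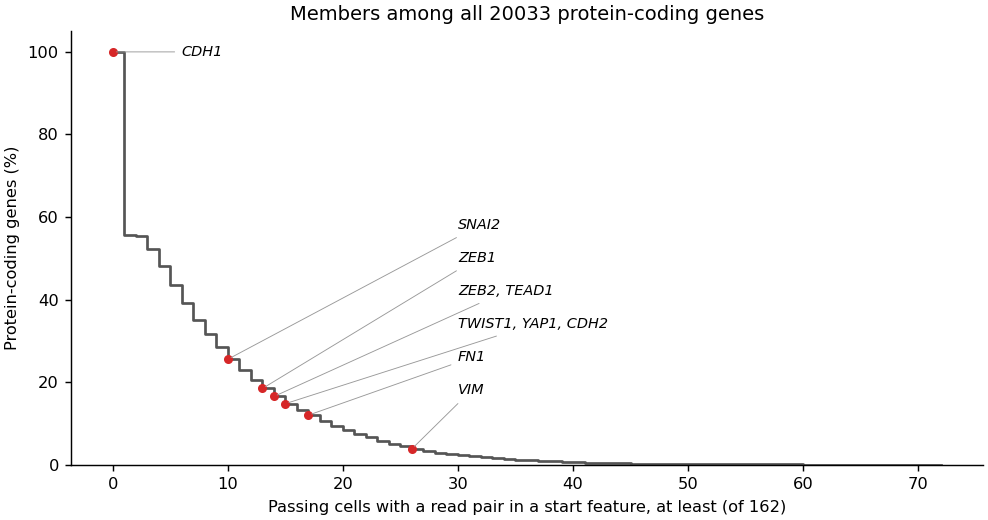
Share of all 20033 protein-coding genes (y axis, %) seen at a start in at least the number of passing cells on the x axis, with the members marked in red. SNAI2 lies at 10 cells, where 25.5% of genes remain, VIM at 26 cells, and CDH1 at 0.

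The windows of the members, starts included, held 96 features that were seen in 2 or more cells, and 1 that was not. Of the 96, 25 were start features of the members, 39 lay inside the genes, 26 in the flanks and 6 over starts of other genes. In all, 48 were seen in 5 or more passing cells (background over all 77053 kept features, 37.6%). After merging the wells, 14 of the 96 were seen in 1 well, where 24.4% of all kept features were seen in at most 1. Start features had a median of 7 cells, features inside the genes 3, flanks 4 and starts of other genes 11, against 3 over all kept features. Features seen in 1 plate only made up 26% of the 96 and 40.9% of all kept features.

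**Figure D3:**
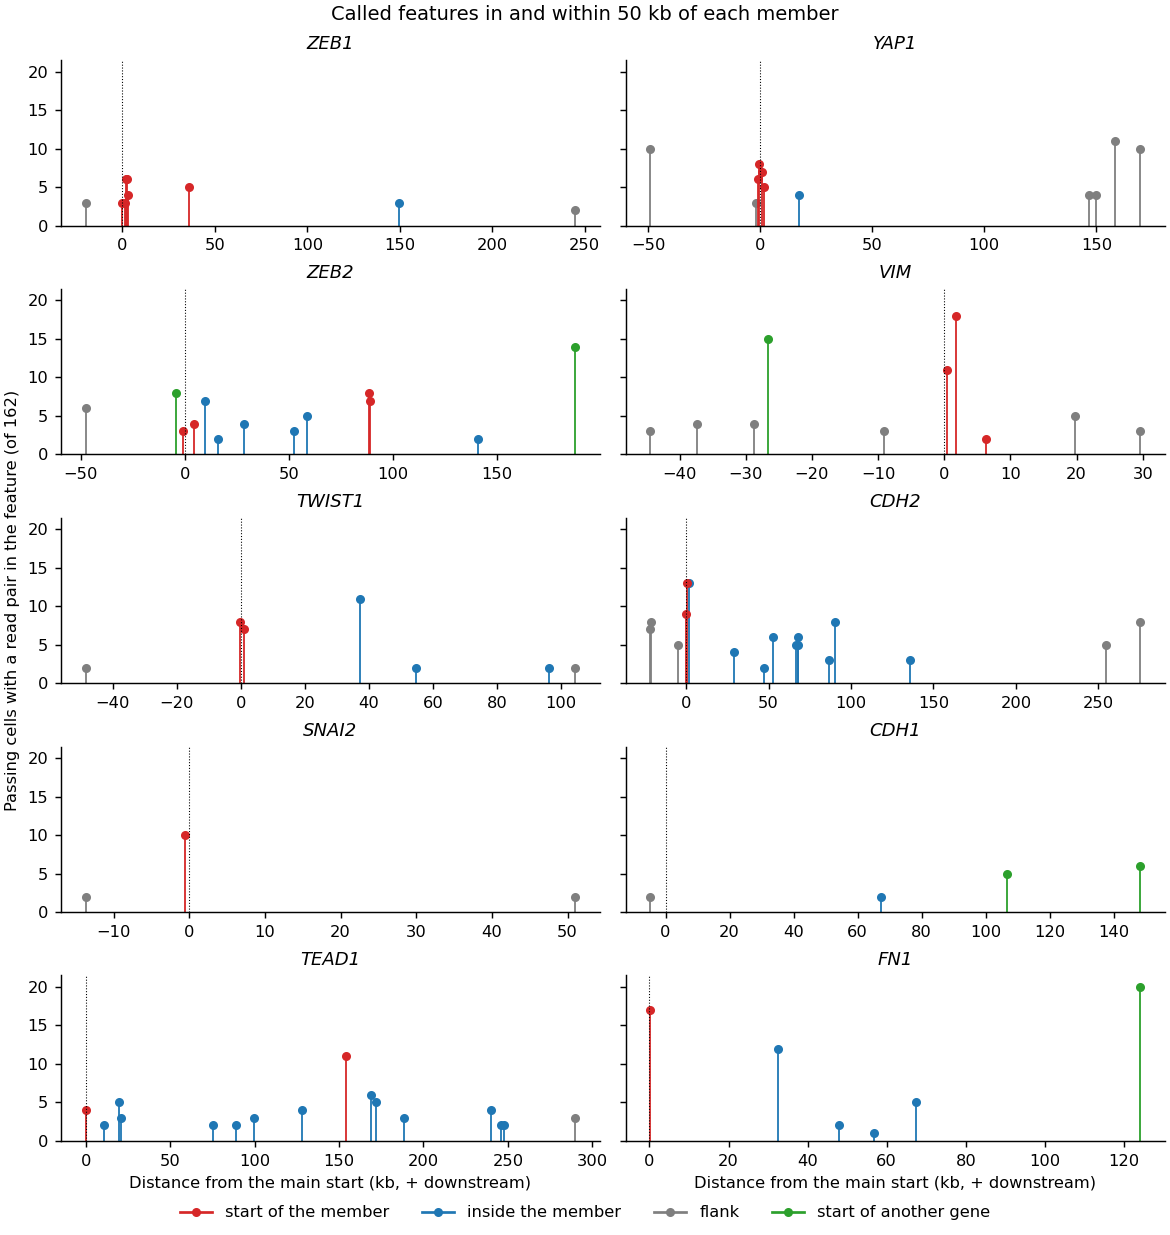
Number of passing cells (y axis) with a read pair in each called feature of the 10 windows, by the distance of its centre from the main start of the gene (x axis, kb; positive is downstream), coloured by its kind. The own features of VIM and FN1 are highest close to the main start, with 18 and 17 cells, while the highest point of the FN1 window, 20 cells, is the start of ATIC. TEAD1 and ZEB2 have their highest own start features inside the gene, and CDH1 has none at its start.

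Features per length differed among the windows. VIM had 9.14 features per 100 kb, more than 97.7% of protein-coding genes, in a window of 109.4 kb. ZEB2 (5.06), YAP1 (4.93) and CDH2 (4.93) followed, and CDH1 had the fewest, 2.02 per 100 kb. The median was 3.94 over the members and 2.74 over all genes. With features seen in 5 or more cells, CDH2 led with 3.77 per 100 kb (13 of its 17 features), ahead of VIM (3.66) and YAP1 (3.14), while TEAD1, with 16 features of which 4 reached 5 cells, had 1.08.

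The distal features seen most often differed from member to member. Inside FN1, a feature 32.4 kb from the start (chr2:215403200-215404200) was seen in 12 cells, 5 of plate 1 and 7 of plate 2, and in 12 merged wells. Downstream of YAP1, 158.3 kb from its main start, a feature in no annotated gene (chr11:102268213-102269213) was seen in 11 cells, 8 of plate 1 and 3 of plate 2. Another at chr11:102279422-102280422 was seen in 10, and an upstream one in the gene CFAP300 in 10. For TWIST1, a feature 37.3 kb from the start, inside the longest annotated transcript (chr7:19079841-19080841), was seen in 11 cells, 5 and 6 by plate, but in 8 merged wells. TEAD1 had 6 cells at most in an intron (chr11:12842660-12843660), ZEB1 3 cells upstream (chr10:31298714-31299714) and SNAI2 2 cells in a flank (chr8:48869889-48870889).

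There were 6 features over starts of neighbouring genes. ATIC, which encodes an enzyme of purine synthesis, lies in the FN1 window and was seen in 20 cells, 12 of plate 1 and 8 of plate 2. TRDMT1, an RNA methyltransferase gene in the VIM window, was seen in 15 cells (7 and 8), and GTDC1 in the ZEB2 window in 14 (5 and 9). These are starts of other genes and were not counted for the members.

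In base composition, the start features of the members had a median GC content of 54.8%, with an observed-to-expected CpG ratio of 0.729, and the 15720 kept features within 1000 bp of a start of any protein-coding gene had 59.1% and 0.716. The 23 of the 25 that hold a start had 59.2% and 0.729, against 60.1% and 0.739 for all kept features that hold one. The 65 member features that hold no start and lie over 1000 bp from those of their own gene had 39.5% and 0.203, against 39.8% and 0.19 for the 63303 kept features that hold no start, whatever their distance from one. The TEAD letters were in 31 of these 65 (47.7%, against 44.4%), CACCTG in 32 (49.2%, against 46.8%), the AP-1 letters in 16 (24.6%, against 30.4%) and CANNTG in 64 (98.5%, against 99.3%). Among the 24 seen in 5 or more cells, CACCTG was in 8 (33.3%, against 42% of all such features), below the background where the 65 stood above it, the TEAD letters were in 9 (37.5%, against 45.6%) and the AP-1 letters in 4 (16.7%, against 30.8%).

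The shares moved with depth. Read pairs in features per passing cell ranged from 345 to 15351 (median 2067.5). In the 54 deepest cells VIM was seen in 29.6%, FN1 in 22.2% and YAP1 in 20.4%, and in the 54 shallowest in 9.26%, 3.70% and 3.70%. For SNAI2 and TEAD1 the middle cells had the most: SNAI2 was seen in 1, 5 and 4 cells and TEAD1 in 3, 7 and 4 cells of the shallowest, middle and deepest 54. When every cell with enough read pairs was thinned to 600, VIM was seen in 9 cells, ZEB1 in 6, YAP1 in 5, CDH2 in 4, ZEB2, TWIST1, SNAI2 and TEAD1 in 3 each and FN1 in 1. No member then reached 10 cells, as 1.55% of protein-coding genes did.

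**Figure D4:**
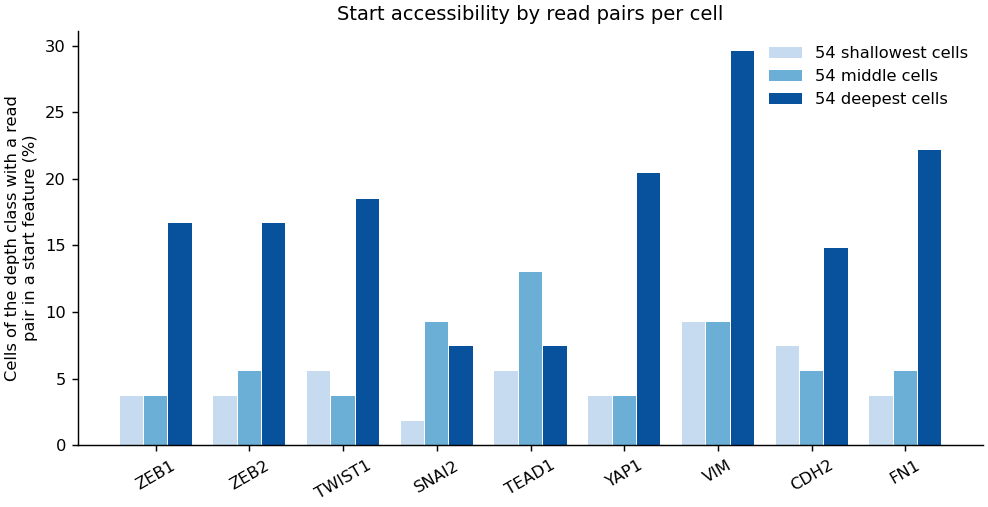
Share of cells (y axis, %) with a read pair in a start feature of each member (x axis) in the 54 shallowest, 54 middle and 54 deepest passing cells by read pairs in features, without intervals. For 7 of the 9 genes the deepest cells have the highest share; for SNAI2 and TEAD1 the middle cells do.

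Within a cell, few members were seen together, but each member was also seen in few cells. No expected number of shared cells was worked out, so the counts that follow are a description only. At least 1 was seen in 88 cells (54.3%) and none in 74, and 50 cells had 1 member, 31 had 2 and 7 had 3 or more, up to 5. The deepest 54 cells had a median of 1.50 members, and the others 0. VIM and CDH2 shared 5 cells, and 4 pairs shared 4 cells: ZEB1 and YAP1, TWIST1 and VIM, TWIST1 and FN1, and YAP1 and CDH2. With paired wells merged, TWIST1 and VIM also shared 5. CDH2 and FN1 shared none, nor did SNAI2 with ZEB1, TWIST1, YAP1 or FN1. A start not seen in a cell is not thereby a closed one at this depth.

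Other genes of the same processes are described from lists of fixed size, to be read against the 55.5% of all protein-coding genes with a start feature and the 25.5% seen in 10 or more cells. Of 12 genes of adhesion to the matrix, 11 had a start feature (91.7%) and 6 were seen in 10 or more cells (50%), led by ITGAV, the integrin alpha V gene (36 cells), and ZYX, which encodes the focal adhesion protein zyxin (24 cells), while VCL, the vinculin gene, had no start feature. Of 17 Hippo pathway genes besides the members, 13 had a start feature (76.5%) and 6 reached 10 cells (35.3%), led by WWTR1, the YAP1 paralog also called TAZ (25 cells), and STK3, an upstream kinase (24 cells). MOB1A and SAV1 were among the 4 without one. By the best single feature, 4 of the 12 adhesion and 5 of the 17 Hippo genes reached 10 cells, against 21.3% of all genes. Of 4 YAP target genes, CCN1 was seen in 10 cells and CCN2 in 9, and ANKRD1 and AXL had no start feature, so that the shares of this short list, 50% and 25%, were near those of all genes. With paired wells merged, CCN1 was seen in 9 wells. Then 5 adhesion, 6 Hippo and 0 YAP target genes were seen in 10 or more wells, against 23.1% of all genes.

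Of the 20 genes of a wider mesenchymal list, 8 had a start feature (40%, against 55.5% of all genes). The share seen in 10 or more cells was 25% (5 genes), beside the 25.5% of all genes. LOX, which crosslinks collagen, was seen in 16 cells and its relative LOXL2 in 14, whereas ACTA2 (smooth muscle actin) and CDH11 were among the 12 with none. Of 20 epithelial genes, CDH1 not counted, 7 had a start feature and 1 reached 10 cells (5.00%): ESRP2, a splicing factor of epithelial cells, with 12 cells. With paired wells merged, ESRP2 was seen in 9 wells, so that 0 epithelial genes reached 10, while 5 of the mesenchymal list did. EPCAM, a surface protein of epithelia, was seen in 8, and CDH3 and CLDN4 were among the 13 with none. Of 5 defining epithelial markers, EPCAM alone had a start feature, and CDH1 and KRT18 were among the 4 without.

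Markers of blood cells were checked because of the origin of the line. Of 12, 3 had a start feature (25%, against 55.5% of all genes): KIT (16 cells), RUNX1 (12 cells) and TAL1 (3 cells). The share seen in 10 or more cells was 16.7%, against 25.5%. CD33 and the pan-leukocyte gene PTPRC were among the 9 without.

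**Figure D5:**
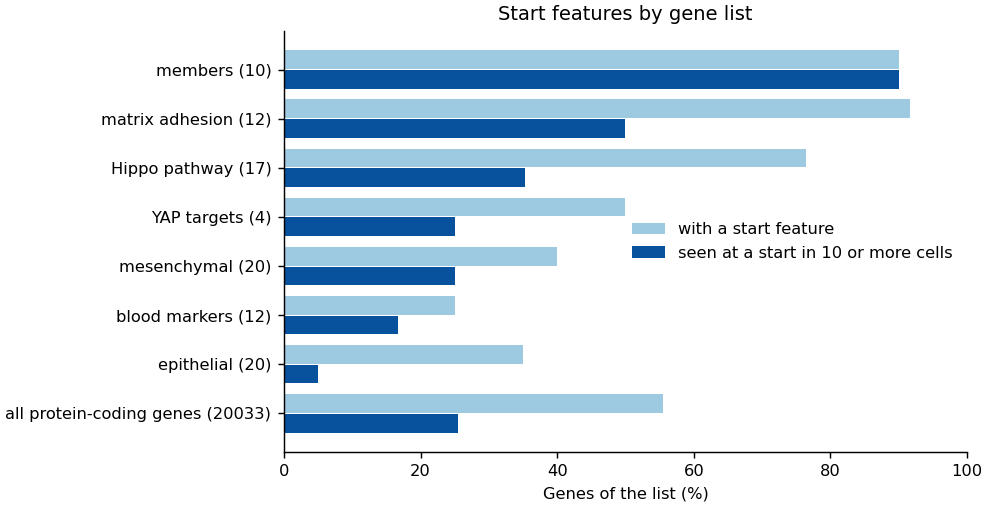
Share of the genes of each list (x axis, %; number of genes in brackets) with a start feature and seen at a start in 10 or more passing cells. The members stand at 90% on both, the mesenchymal list at 40% and 25%, the epithelial list at 35% and 5.00%, and all protein-coding genes at 55.5% and 25.5%.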

How the data were processed

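Single nuclei of HAP1 cells were profiled by plate-based snATAC-seq, 96 per plate. Per the Methods, the authors trimmed and filtered the reads, set aside those with a CASB barcode, aligned the others to hg38, removed mitochondrial, poorly mapped and duplicated reads, and called peaks with MACS2 (version not given in the sources used here) on the cells of both plates together, so features are the same for both plates. The deposited table holds unnormalized counts of read pairs, 1 column per cell, from the run of featureCounts (version 1.6.0) by the authors. The plates summed to 241927 and 241240 read pairs.

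The counts were binarized, features seen in 2 or more cells were kept, and the cells with more than 300 kept features passed (83 of plate 1 and 79 of plate 2). No doublet caller was run on these sorted single nuclei. Starts and genes come from GENCODE 44. Thinning drew 600 read pairs per cell without replacement. No separate cultures are named, so shares have exact 95% binomial intervals and no p-value was made. The members, the gene lists, the merging of paired wells and the alternatives were chosen with earlier results of these data known. For the named features, the rule took for each member the feature away from its starts seen in the most cells and every feature seen in 16 or more cells, and from each list the 2 genes seen in the most and up to 2 of those seen in the fewest. The YAP1 and FN1 features seen in 10 to 12 cells, the CDH1 features, PTPRC and TAL1 were named after their values were seen. A blood marker that the rule also named is not reported here. The scripts were tested on simulated cells with known shares. The tools were Python 3.11.15 with pandas 2.3.3, NumPy 2.4.6, SciPy 1.17.1 (intervals) and matplotlib 3.10.9 (figures).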

Additional observations from a re-analysis of the deposited data

How the results depend on the processing

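Shallow cells limit these values: most members were seen through single read pairs, and a start not seen in a cell may be open there. Requiring 2 or more read pairs lowered the median share over the members from 8.95% to 1.23%, and thinning to 600 read pairs lowered it to 2.05%. After thinning, 0 members were seen in 10 or more cells, and 5 were when the best single start feature stood for each gene, a setting chosen after seeing the data. Of the 96 features in the windows, 48 were seen in 5 or more passing cells. By construction, each of these settings counts fewer read pairs or fewer features. The other 23 of 27 planned values for the members together moved by less than 1.5 times or within counting error. Among the planned shares of single genes, 90 of 110 stayed within counting error and 20 moved. The 90 include all those of CDH1, which had no start feature and stood at 0 in each setting. Under the MANE Select start alone, also chosen after seeing the data, 6 members were seen in 10 or more cells, against 20.9% of protein-coding genes. In the 30 planned comparisons of plates, which include CDH1 at 0 in both plates, the intervals overlapped. No paired analysis was possible because the result comes from no test. Wells that share a position within a plate were merged as an alternative instead.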
